A study of Rattus norvegicus with 12 samples.

Results

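The 3 small-RNA libraries described here were made from the lumbosacral spinal cord of normal Wistar rat fetuses on embryonic day 19. They are 3 of the 12 libraries of a study on anorectal malformations, numbered replicates 4 to 6, and were chosen by their labels alone. Each library was measured for 753 miRNAs, and all 753 are accounted for. The fetuses carried no stated treatment or genetic change. The labels do not say whether the replicates are separate fetuses, litters or pools, so every SD below measures the spread between these 3 samples, which may be technical. Libraries of fetuses with malformations and long-RNA libraries were not used here, and no groups were compared.

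A miRNA is cut from one arm of a folded precursor, the 5p or the 3p arm, and is loaded into an Argonaute protein. It pairs with target mRNAs mainly through its seed, bases 2 to 8 from its 5′ end, so miRNAs with the same seed form a family with largely shared targets. The lumbosacral cord holds the motor neurons of the hindlimb and pelvic floor, and late fetal cord also holds interneurons, glial precursors, young oligodendrocytes and vessels. Small-RNA sequencing reads each mature molecule from end to end, so levels are given in counts per 1000000 miRNA counts (CPM) with no length term. Ligation and amplification differ between sequences, so an order of levels is an order of reads and not of molecules.

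The sequences of the leading families are shown first, because the results on families, arms and near copies turn on them. Capitals mark the seed, and all are RefSeq mature sequences of the GRCr8 assembly.
miR-9a-5p: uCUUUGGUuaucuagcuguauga
miR-10a-5p: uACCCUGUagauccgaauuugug
miR-10b-5p: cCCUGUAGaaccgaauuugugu
miR-100-5p: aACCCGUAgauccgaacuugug
miR-99b-5p: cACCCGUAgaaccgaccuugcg
let-7i-5p: uGAGGUAGuaguuugugcuguu
let-7g-5p: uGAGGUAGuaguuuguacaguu
let-7c-5p: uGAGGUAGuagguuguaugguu
let-7a-5p: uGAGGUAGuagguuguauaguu
let-7f-5p: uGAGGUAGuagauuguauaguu
miR-125b-5p: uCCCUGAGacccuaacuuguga
miR-125a-5p: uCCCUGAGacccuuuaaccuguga
miR-30a-5p: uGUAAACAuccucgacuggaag
miR-30c-5p: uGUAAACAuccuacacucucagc
miR-7a-5p: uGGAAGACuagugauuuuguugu
miR-7b: uGGAAGACuugugauuuuguugu
miR-127-3p: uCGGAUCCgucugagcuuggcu
miR-148a-3p: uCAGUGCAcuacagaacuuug
miR-148b-3p: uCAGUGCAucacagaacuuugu
miR-218a-5p: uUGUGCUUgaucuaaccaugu
A miRNA named here without a printed sequence is given by its name.

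The libraries held 12408269, 11702113 and 12939364 miRNA counts in replicates 4, 5 and 6. In this order, which is kept for every set of 3 values below, they detected 562, 556 and 555 miRNAs with at least 1 count. Of the 753 miRNAs, 526 (69.9%) had counts in all 3 libraries and 164 (21.8%) were listed at 0 in all 3. The other 63 were seen in some libraries and held 0.00165% of all counts. A count of 0 allows a level of up to 0.242, 0.256 and 0.232 CPM, at 3 counts per library. Some miRNAs that are found in most tissues, miR-21-5p, miR-186-5p and miR-98-5p among them, were also listed at 0, so a value of 0 is given only as listed and nothing is read from it.

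Replicate 4 stood apart from the other 2 libraries. Pearson's r of log2(CPM + 1), taken across 469 miRNAs as a description of libraries that share one tissue and one miRNA set, was 0.998 between replicates 5 and 6. It was 0.993 between replicates 4 and 5 and 0.993 between replicates 4 and 6. The median absolute log2 difference per miRNA was 0.13 between replicates 5 and 6, 0.23 between 4 and 5, and 0.18 between 4 and 6. The chi-square per degree of freedom over the counts was 87.2 or more in each pair, a measure against counting error only; at least 552 miRNAs had unequal counts in each pair, and each library was counted as 1 sample as labelled. Without replicate 4, the 10 leading miRNAs held 68.6% of the counts in place of 68.4%, and the neuronal list defined below held 37.2% in place of 37.0%.

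The miRNA pool of the normal cord was dominated by a handful of molecules, with miR-9a-5p far ahead. miR-9 is a brain and spinal cord miRNA that restrains progenitor genes and, in the chick and mouse cord, acts in motor neuron subtype choice. Its level was 309768, 320233 and 328536 CPM, or 32.0% ± 0.940 of all counts (SD, n = 3). The lowest of these lay above every value of any other miRNA. miR-99a-5p followed at 122952, 98783 and 105950 CPM, and miR-10a-5p at 78218, 96032 and 81035 CPM. The ranges of these 2 did not overlap, but they came within 2751 CPM of each other, replicate 4 being high for miR-99a-5p and replicate 5 high for miR-10a-5p. These 3 miRNAs reached 51.4% ± 0.252 of the counts, and 3 were enough for 50% in every library.

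let-7i-5p, a member of the let-7 family that rises as tissues differentiate, came next at 33991, 32878 and 36499 CPM. miR-125b-5p, which in mice and humans is transcribed with miR-99a and miR-100 relatives, stood beside it at 34546, 29701 and 31949 CPM. Their ranges overlapped, so their order is not set by these libraries. miR-127-3p, a maternally expressed miRNA of the imprinted Dlk1-Dio3 region, was next at 21008, 24867 and 24426 CPM, below every value of miR-125b-5p. From miR-127-3p to let-7g-5p the neighbours in the order overlapped throughout. This stretch held miR-7a-5p, a neuronal and neuroendocrine miRNA, at 22181 ± 2997 CPM, and let-7c-5p at 20504 ± 2483 CPM. It also held miR-10b-5p at 19148 ± 1438 CPM, miR-100-5p at 18121 ± 406 CPM and let-7g-5p at 16031 ± 1595 CPM.

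The rest of the top 20 ran from 13698 down to 8871 CPM. First among them was miR-218a-5p, which lies in introns of the axon guidance genes Slit2 and Slit3 and is a motor neuron miRNA in mice. Its level was 14844, 12582 and 13667 CPM. These values lay below every value of let-7g-5p, but by only 56.1 CPM, and overlapped those of miR-148a-3p at 13324, 11615 and 12950 CPM. miR-126a-3p, an endothelial miRNA, was at 13824, 9260 and 10449 CPM, with replicate 4 high. miR-30d-5p (10947 ± 1078 CPM) and the neuronal miR-128-3p (10927 ± 690 CPM) had all but equal means and overlapping ranges. miR-340-5p (9283 ± 565 CPM), miR-181a-5p (9209 ± 249 CPM), miR-30a-5p (9202 ± 218 CPM) and miR-99b-5p (8871 ± 762 CPM) closed the list, and their ranges overlapped. Of the 20 steps down the order, from the first miRNA to the one after the twentieth, 6 had separate ranges and 14 overlapped.

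**Figure D1:**
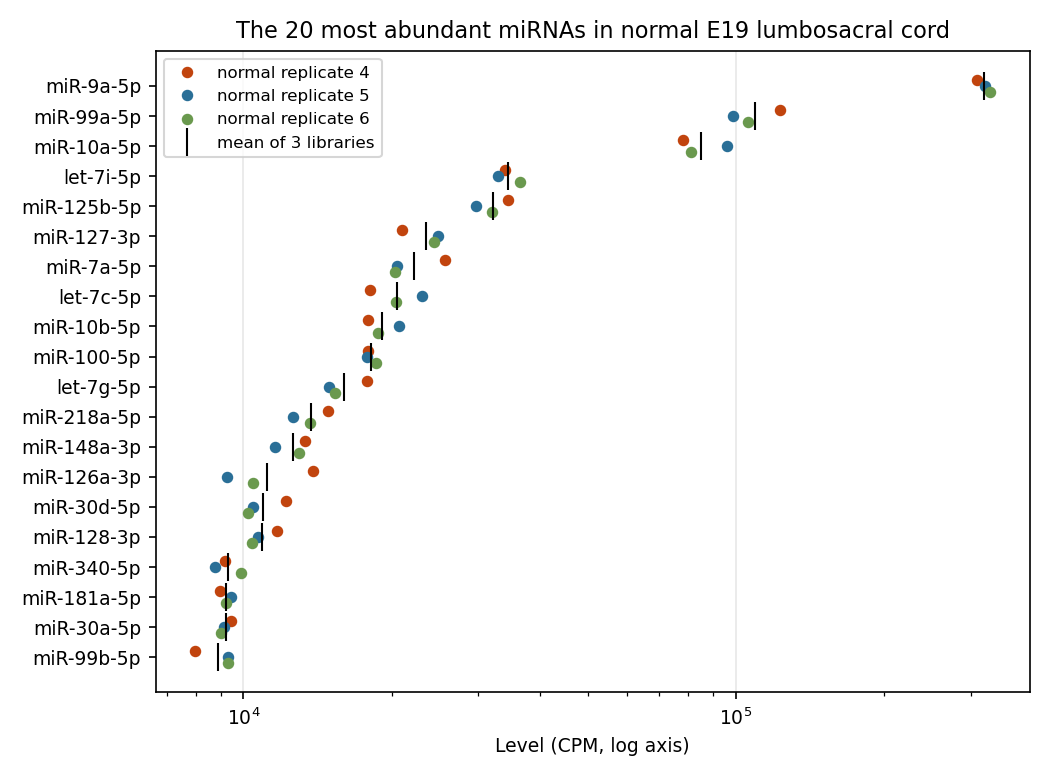
The level of the 20 most abundant miRNAs, in CPM on a log axis, with a dot for each normal library and a bar for the mean of the 3. miR-9a-5p lies alone near 319512 CPM, whereas the dots of most neighbours from let-7i-5p downwards overlap.

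The same miRNAs led in all 3 libraries. The 10 most abundant by mean were the 10 most abundant in each library, 19 of the top 20 were shared by all 3, and 95 of the top 100. The top 10 held 68.0%, 68.5% and 68.7% of the counts, the top 20 held 79.6% ± 0.443, and the top 100 held 96.6% ± 0.0615. Between 161 and 163 miRNAs made up 99% of a library. The tail was long: 72, 78 and 75 miRNAs reached 1000 CPM, 191, 193 and 194 reached 100 CPM, and 457, 459 and 459 reached 1 CPM.

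Grouped by seed, the pool was still narrower. The 699 miRNAs with a seed fell into 581 families, and the 10 largest held 77.6% ± 0.209 of the counts. Families of more than 1 member held 39.6%, since miR-9a-5p, miR-10a-5p and miR-127-3p each had a seed that no other listed miRNA shared. In 71 of the 76 families with several members and any counts, a single member had over 50% of the family. In a family of 2, one member must do so unless the counts are equal, so nothing is read from this number.

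After miR-9a-5p came the miR-99/100 family, with the seed ACCCGUA, at 14.9%, 12.6% and 13.4% of the counts. These miRNAs are known to target components of the mTOR growth pathway. miR-99a-5p supplied 80.1% ± 2.21 of the family, miR-100-5p 13.4% ± 1.15 and miR-99b-5p 6.57% ± 1.06. Having no listed sequence, miR-99a-5p was placed here by name, so the family's share and rank rest on that placing. The let-7 family, with the seed GAGGUAG, held 8.60%, 8.63% and 8.81%. It had 8 members with counts, and miR-98-5p, the ninth, was listed at 0. The family's share varied little, with an SD of 0.116 percentage points, although its members shifted against each other. let-7i-5p supplied 39.7% ± 1.67 of it, let-7c-5p 23.6% ± 2.86 and let-7g-5p 18.5% ± 1.99. The let-7a-5p form, often used to stand for the family, supplied 5.44% ± 0.294, close to let-7f-5p at 5.34% ± 0.637.

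The miR-125 family held 3.76% ± 0.298 of the counts, with miR-125b-5p at 85.2% of it, miR-125a-5p at 13.9% and the rodent miR-351-5p at 0.915%. The miR-30 family (2.77% ± 0.175) was more evenly spread: miR-30d-5p supplied 39.5%, miR-30a-5p 33.3%, miR-30c-5p 22.3%, miR-30e-5p 3.82% and miR-384-5p, which shares the seed under another name, 1.08%. Like miR-99a-5p, miR-30d-5p had no listed sequence and was placed by name. In the miR-7 family (2.39% ± 0.326), miR-7a-5p supplied 92.7% and miR-7b 7.27%. miR-148a-3p supplied 77.3% ± 0.108 of the miR-148/152 family (1.63% ± 0.117), and its part ranged only from 77.2% to 77.4% over the libraries. Smaller families above 1% were those of miR-181a-5p (1.46%), miR-218a-5p (1.37%), miR-126a-3p (1.12%) and miR-128-3p (1.09%).

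**Figure D2:**
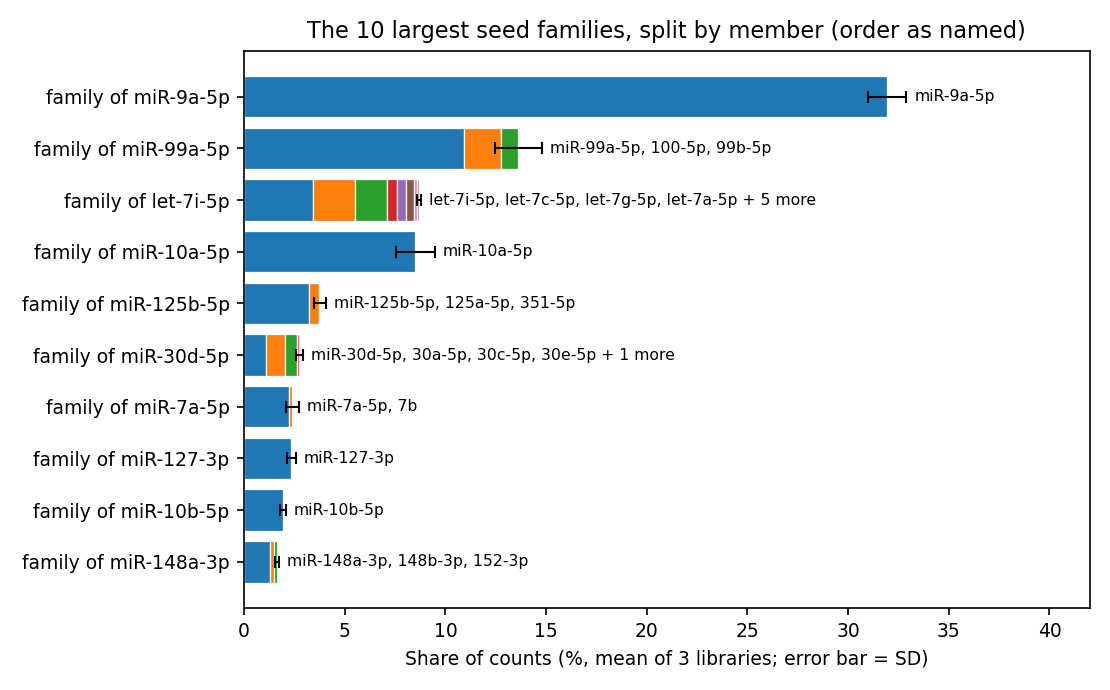
The share of all counts, in percent, held by each of the 10 largest seed families as the mean of the 3 libraries, with the SD as error bar and each bar split by member in the order of the names beside it. miR-9a-5p makes up its family of 32.0% alone, and in the let-7 and miR-30 families no member reaches 50%.

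The place of miR-10 depends on how its members are grouped. In the listed sequences, miR-10b-5p starts 2 bases later than miR-10a-5p, and over the 21 bases they share they differ only by U12A, counted from the 5′ end of miR-10a-5p. Their seeds therefore read ACCCUGU and CCUGUAG, and they form separate families of 8.51% ± 0.958 and 1.91% ± 0.144. Joined by name, they held 9.61%, 11.7% and 9.98% of the counts, which places them above let-7. miR-10a-5p was 4.44-fold more abundant than miR-10b-5p. Their loci lie in different Hox clusters, miR-10a at chr10:81779709-81779818 and miR-10b at chr3:80035859-80035967, both on the plus strand of GRCr8.

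Several of these sequences differ by a single base, and how the authors assigned reads to such near copies is not given in the sources used here. let-7c-5p and let-7a-5p differ by G19A, let-7a-5p and let-7f-5p by G12A, and miR-7a-5p and miR-7b by A10U, the first-named base being that of the first-named miRNA. In all, 57 miRNAs with 15.3% of the counts had a partner of the same length within 2 substitutions, so the split within let-7 and miR-7 is less certain than the family total. let-7c-2-3p and let-7a-1-3p have the same listed sequence and carried unequal counts of 821, 612 and 635 against 750, 627 and 646.

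Precursors were then compared by arm. Of 299 precursors with both arms listed, 237 had at least 10 counts in every library. The 5p arm held over 50% in all 3 libraries in 123 of them and the 3p arm in 106, and in 8 the leading arm differed between libraries. By counts the split was uneven: precursors with a leading 5p arm held 84.5% of the counts and those with a leading 3p arm 13.7%. All minor arms together held 2.78%, of which 0.703 percentage points were miR-9a-3p. The median minor arm was 2.27% of its pair. In some pairs, such as miR-103 and miR-149, the minor arm was listed at 0, and these numbers take such values as listed.

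The arm sequences are shown for 4 precursors that differ in arm use, with the mature arms in capitals, from RefSeq on GRCr8. Mir9-1 lies at chr2:175974971-175975059 on the plus strand and is one of 3 loci of miR-9a, Mir434 at chr6:134330402-134330482 on the plus strand, Mir128-1 at chr13:42251884-42251965 on the plus strand and Mir338 at chr10:105796342-105796407 on the minus strand.
Mir9-1: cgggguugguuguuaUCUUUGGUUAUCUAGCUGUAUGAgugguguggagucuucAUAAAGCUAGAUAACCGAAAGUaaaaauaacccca
Mir434: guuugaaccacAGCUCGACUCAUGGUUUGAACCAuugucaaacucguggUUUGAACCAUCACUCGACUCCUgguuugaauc
Mir128-1: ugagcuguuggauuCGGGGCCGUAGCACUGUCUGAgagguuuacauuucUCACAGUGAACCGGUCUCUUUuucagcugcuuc
Mir338: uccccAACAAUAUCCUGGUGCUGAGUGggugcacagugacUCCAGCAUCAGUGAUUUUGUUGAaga

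The most abundant precursors were strongly one-armed. The 5p arm of miR-9a held 97.5%, 97.9% and 98.0% of its pair, that of miR-10a 98.9%, 99.2% and 99.1%, and that of miR-125b 97.4%, 95.7% and 96.2%. Even so, miR-9a-3p stood at 7030 CPM, against 8871 CPM for the twentieth miRNA. Of the 20 most abundant pairs, 16 led with the 5p arm and 4 with the 3p arm. The 3p leaders were miR-127, miR-148a, miR-126a and miR-128. The 5p arm of miR-127 was at 2.56%, 4.08% and 3.73% of its pair, and that of miR-128 at 0.0482%, 0.0703% and 0.0543%. Further down, miR-143, miR-101a, miR-27b and miR-300 had 5p arms of 0.680%, 0.00390%, 0.279% and 0.126%, and the 5p arm of miR-103 was listed at 0.

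Other precursors gave both arms in like amounts, with the minor arm at 25% or more of the pair in 39. The most abundant of these was miR-434, from the Dlk1-Dio3 region, whose 5p arm held 56.3%, 58.7% and 58.8% at levels of 4370 CPM for 5p and 3168 CPM for 3p. miR-30e led with its 5p arm (67.3% ± 3.91), miR-140 likewise (59.7% ± 3.66) and miR-423 with its 3p arm (5p 30.2% ± 1.52). miR-409a, miR-369 and miR-106b had 5p shares of 52.4%, 54.6% and 55.8%, and miR-380 one of 42.2%. The leader changed between libraries in 8 pairs, some of them with a large spread. The 5p arm of miR-199a, a mesenchymal miRNA, held 42.6%, 57.0% and 52.4%. miR-382 stood at 49.8%, 52.1% and 54.8%, miR-539 at 44.8%, 59.5% and 65.0%, miR-132 at 53.7%, 41.6% and 50.6%, and miR-667 at 42.5%, 42.5% and 56.3%. In the first 3 of these, replicate 4 was the only library led by the 3p arm. Over all 237 pairs the median SD of the 5p share was 0.408 percentage points, but a share near 0 or 100% has little room to vary. Pairs with one leader throughout also shifted: the 5p arm of miR-879, taken as an example after its values were seen, held 76.3%, 86.6% and 85.1%.

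In the neural and glial precursors the leading arm was not always the best-studied one. miR-124, a miRNA of differentiated neurons, led with its classical 3p arm, but its 5p arm held 17.7%, 19.9% and 20.9% of the pair. miR-219a, which in mice promotes oligodendrocyte maturation, led with 3p arms: miR-219a-2-3p was at 1369, 1705 and 1641 CPM, whereas miR-219a-5p, the arm studied in mice, was at 11.3 CPM. miR-338, its partner in that role through the 3p arm, led here with the 5p arm at 97.6%, 96.0% and 97.4% of the pair, or 123 CPM for 5p against 3.67 CPM for 3p.

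**Figure D3:**
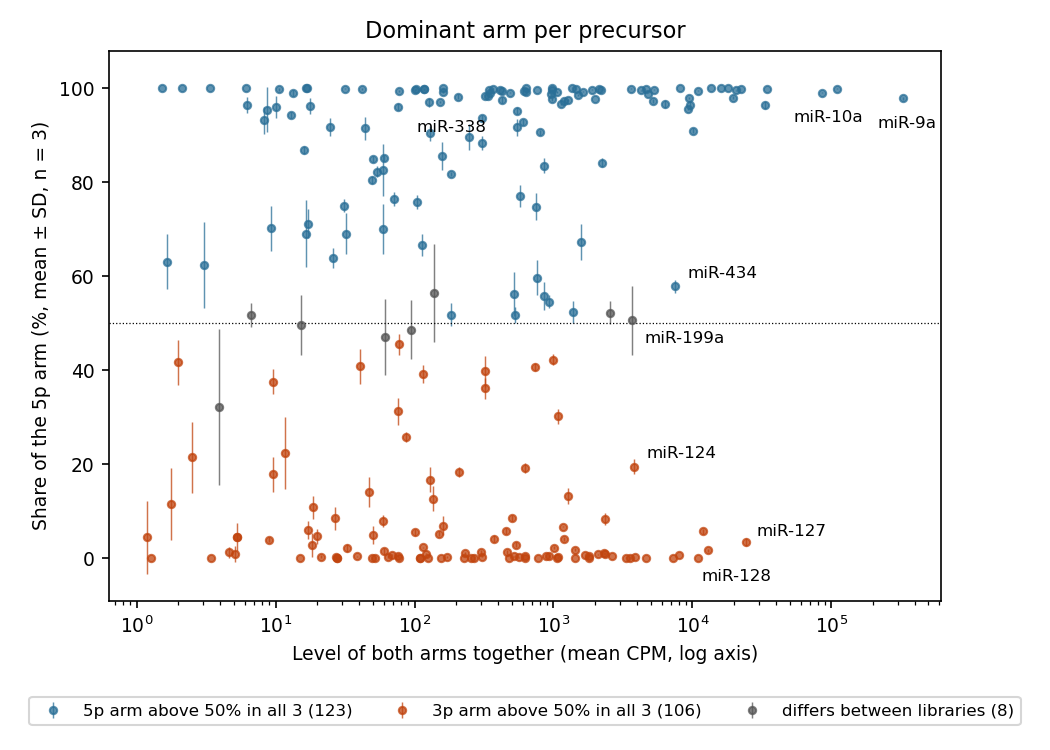
The share of the 5p arm in each of 237 precursors, in percent as mean ± SD of 3 libraries, against the mean level of both arms in CPM on a log axis. Points crowd at the top and the bottom, as with miR-9a and miR-128, and the pairs near 50%, such as miR-434 and miR-199a, lie in between.

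The labelled tissue was checked against lists of miRNAs known from single tissues or cell types. The neuronal list had 29 of its 30 members in all 3 libraries and held 36.4%, 36.9% and 37.6% of the counts. Most of it was miR-9a-5p, at 86.4% of the list, which progenitors and astrocytes also make. Without the miR-9 members, the list held 4.67%, 4.16% and 4.12%. In these bulk samples, fewer cells of a type and less RNA per cell cannot be told apart.

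Among the neuronal members after miR-7a-5p and miR-128-3p, miR-124-3p was at 2622, 3274 and 3189 CPM, lowest in replicate 4. miR-129-5p stood at 1935 CPM and miR-488-3p at 1796 CPM. The activity-regulated miR-132-3p was low at 48.7 CPM, as was miR-153-3p at 59.2 CPM. The motor neuron list held 1.48%, 1.26% and 1.37%, all but a trace of it miR-218a-5p, and miR-218b was listed at 0. The sensory list, the cluster of miR-183, miR-96 and miR-182 known from sensory ganglia and sense organs, held 0.263%, 0.254% and 0.260%. Its leaders were miR-182 at 1671 ± 46.7 CPM, miR-183-5p at 758 CPM and miR-96-5p at 159 CPM. The oligodendrocyte list held 0.163%, 0.192% and 0.185%, lowest in replicate 4.

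The miRNAs that lie inside the Hox clusters formed a further list. No other level of the body axis was described here, so no position was read from them. All 11 had counts in all 3 libraries, and together they held 9.88%, 11.9% and 10.2%. After miR-10a-5p and miR-10b-5p came miR-196a-5p, which lies among the caudal Hox genes and acts on Hoxb8 in mice, at 1138, 1021 and 973 CPM. miR-196b-5p was at 202 CPM, miR-615 at 34.6 CPM and miR-196c-5p at 23.3 CPM.

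The 12 lists of other tissues held 2.95%, 2.44% and 2.52% of the counts together, with 104 members in the table and 34 of them listed at 0. A listed 0 enters these sums as 0, so the sums may be too low. The largest were smooth muscle and mesenchyme at 1.22%, 1.21% and 1.15%, and endothelium at 1.46%, 0.987% and 1.11%, both found in the vessels and coverings of any cord sample. miR-143-3p led the former at 7944 CPM, followed by miR-199a-3p at 2492, 1354 and 1685 CPM and miR-199a-5p at 1831 CPM. The cartilage miRNAs miR-140-5p and miR-140-3p, at 456 and 307 CPM, held 0.0763%. The leukocyte list held 0.0629%, 0.0482% and 0.0456%, led by miR-146a-5p at 412 CPM and miR-150-5p at 104, 95.6 and 101 CPM, and both arms of miR-142, its defining marker, were listed at 0. The 4 erythroid miRNAs in the table, both arms of miR-144 and miR-451, were listed at 0 as well.

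Striated muscle miRNAs were scarce but measurable, at 0.0420%, 0.0233% and 0.0388%, with 7 of 16 listed at 0. miR-206-3p was at 191, 90.2 and 184 CPM, miR-499-5p averaged 118 CPM, and miR-1-3p was at 68.0, 32.1 and 55.0 CPM. Replicate 5 was low for miR-206-3p and miR-1-3p. The epithelial list held 0.0105%, 0.0129% and 0.0178%, most of it miR-203a-3p, at 78.0, 103 and 147 CPM, and 4 of its 14 members were listed at 0. The gut and kidney list held 0.0531% ± 0.000947, with miR-192-5p at 369 CPM and miR-194-5p at 160 CPM. The pancreatic list held 0.0240% ± 0.00155, with miR-217-5p at 102 CPM, miR-216b-5p at 77.1 CPM, miR-375-3p at 27.6 CPM and miR-375-5p listed at 0. What part such tissues had in the samples was not tested.

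The lists of early embryo and germ cells had next to no counts. The pluripotency list had 27, 43 and 39 counts in all, led by miR-293-5p at 2.11 CPM and with 4 of 11 members listed at 0. The X-linked male germline list had 44, 9 and 36 counts over 23 members, of which 12 were listed at 0. The proliferation-linked clusters of miR-17 and its paralogues, by contrast, held 0.870%, 0.986% and 0.876% of the counts. miR-25-3p led them at 1782 CPM, followed by miR-20a-5p at 1447 CPM and miR-93-5p at 1236 CPM, and miR-19b-2-5p and miR-92a-2-5p were listed at 0.

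**Figure D4:**
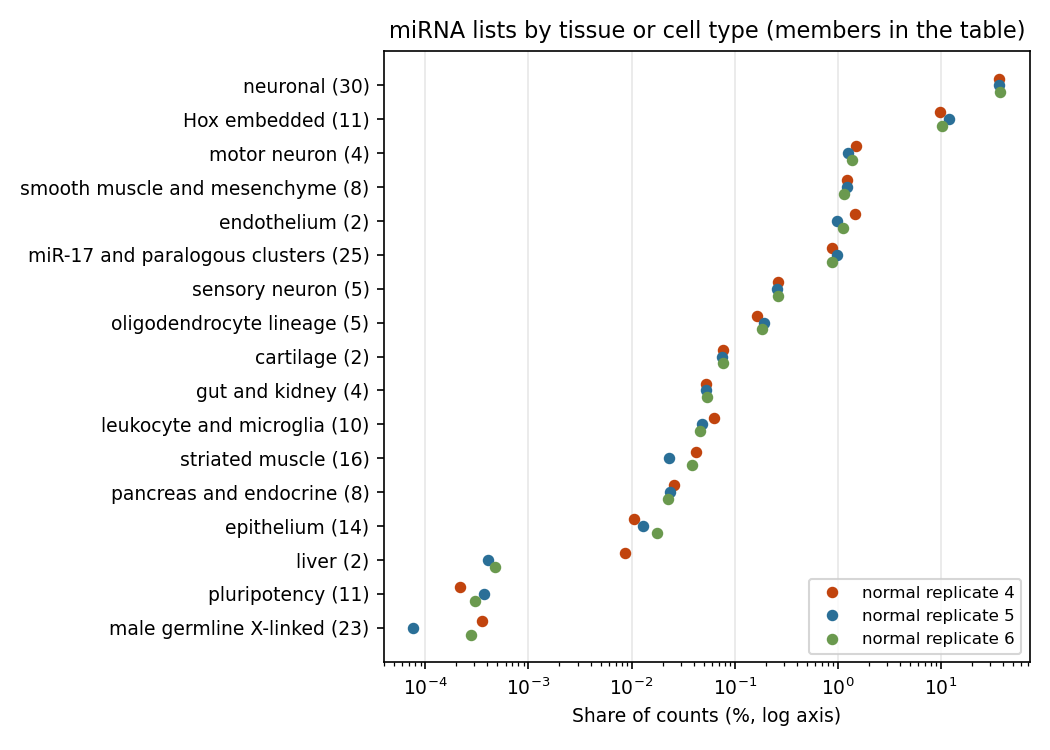
The share of all counts, in percent on a log axis, held by each list of tissue or cell type miRNAs, with a dot for each normal library and the number of members in the table in brackets; the erythroid list, at 0, is left out. The neuronal and Hox lists lie highest, and the liver list shows replicate 4 far from the other 2 libraries.

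Members of the same genomic cluster did not share one level. With hairpins within 10 kb on a strand joined, RefSeq placed 181 of 419 hairpins in 52 clusters of at least 2. At chr1:67350064-67350759, miR-99b-5p, let-7e-5p and miR-125a-5p lie within 696 bases and stood at 8871, 1476 and 5235 CPM. miR-143-3p and miR-145-5p, 2 smooth muscle miRNAs whose hairpins lie within 1471 bases on chromosome 18, stood at 7944 and 222 CPM. In the Dlk1-Dio3 region on chromosome 6, the group of 9 hairpins that holds miR-127 and miR-434 gave 3.65% of the counts. The larger group of 31 hairpins downstream of it gave 2.83%. Its listed hairpins do not include those of miR-376b (499 CPM over both arms) and miR-485 (324 CPM), so that sum leaves them out. The sum for the group of 9 covers 15 placed miRNAs and leaves out miR-127-5p (852 CPM) and miR-136-5p (202 CPM). miRNAs placed at a single locus on chromosome 6 numbered 117 and held 7.39% ± 0.482 of the counts.

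The sequence features of the abundant miRNAs were not used in choosing the libraries. They cover the 688 miRNAs with a listed sequence, which held 85.5%, 87.8% and 87.2% of the counts; miR-99a-5p and miR-30d-5p are outside them. A U at the first base, which Argonaute favours, was found in 36.2% of these miRNAs, and these held 83.7% ± 0.231 of their counts. Leaving out miR-9a-5p, the share was 74.2% ± 0.419. G as first base lay at the other end, with 12.6% of the miRNAs and 0.818% ± 0.0440 of these counts. Mature sequences of 23 bases made up 16.4% of the miRNAs and 55.2% of these counts, those of 22 bases 45.8% and 34.0%. The 23-base group includes miR-9a-5p, which alone held 32.0% of all counts. The GC content weighted by counts was 41.1%, 41.4% and 41.2%, against 48.7% when each miRNA was weighted equally. Length and GC content were not computed without miR-9a-5p, so they are not read as traits of abundant miRNAs in general.

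The spread between the libraries was small for most miRNAs. Over the 346 miRNAs with a mean of at least 100 counts, the median coefficient of variation (CV, the SD as a percentage of the mean CPM) was 10.3%, with quartiles of 6.16% and 16.5%. Counting error alone would give a median of 2.33%, and 323 of the 346 lay above their own counting error, so depth was not what limited their precision. The median CV was 12.2% at 100 to 1000 counts, 9.59% at 1000 to 10000 and 8.42% above. edgeR's common biological coefficient of variation, which removes counting error, was 0.159 over 446 miRNAs. Much of this came with replicate 4: without it the median CV was 5.68% and the biological coefficient 0.0894, whereas without replicate 5 they were 8.90% and 0.167, and without replicate 6 10.8% and 0.191. Replicate 4 lay over 1.5-fold from the mean of the others in 27 miRNAs, replicate 5 in 9 and replicate 6 in 4.

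The steadiest miRNA was miR-134-5p, a dendritic miRNA of the Dlk1-Dio3 region, at 1898, 1902 and 1881 CPM (CV 0.592%). let-7e-5p (1.26%), miR-362-5p (1.28%), miR-139-3p (1.35%) and miR-487b-3p (1.63%) came next. For miR-134-5p, miR-362-5p and miR-139-3p the CV lay below what counting error gives on average. At the other end was miR-122-5p, the liver miRNA, with 1059, 48 and 62 counts, or 85.3, 4.10 and 4.79 CPM (CV 149%). Its mean of 31.4 CPM rested on replicate 4 and was 4.45 CPM without it. miR-6321 had the opposite form, with 0, 182 and 255 counts (CV 88.4%). miR-879-5p at 26.2, 60.0 and 63.1 CPM and miR-6325 at 7.09, 16.2 and 15.1 CPM were also low in replicate 4, whereas miR-181a-2-3p was high in replicate 5 at 6.77, 12.0 and 6.34 CPM. Of the 17 lists with counts, replicate 4 was highest in 9, replicate 5 in 4 and replicate 6 in 4. The 9 were the motor neuron, sensory neuron, leukocyte, endothelial, smooth muscle, striated muscle, liver, pancreatic and germline lists. Most of these were among the lists of other tissues, which together held 2.95%, 2.44% and 2.52%. The neuronal, oligodendrocyte and Hox lists were lowest in replicate 4, and so were the epithelial, gut and kidney, pluripotency and miR-17 lists. What part any list had in the distance of replicate 4 from the others was not tested.

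**Figure D5:**
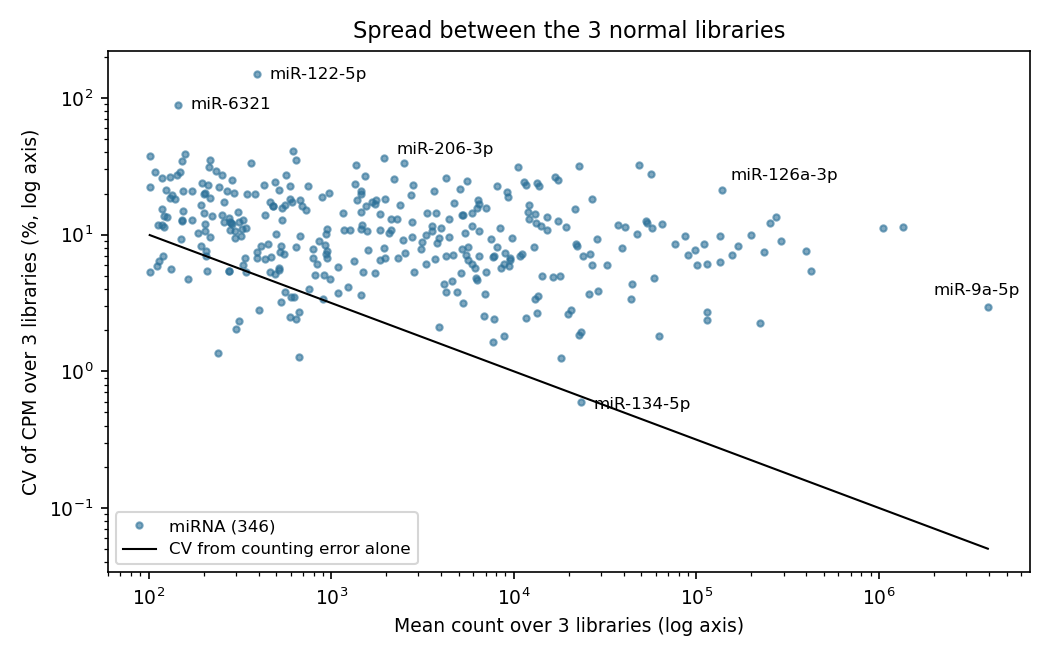
The CV of CPM over the 3 normal libraries, in percent, against the mean count of each of 346 miRNAs, both on log axes, with a line for the CV that counting error alone gives. Most miRNAs lie above the line, miR-122-5p and miR-6321 lie highest, and miR-134-5p lies lowest.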

How the data were processed

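Total RNA of the 3 normal libraries was extracted with a mirVana kit, per the labels' protocols. The deposited table gives mature miRNA counts and TPM values per library; the TPM deposited by the authors equal counts per 1000000 of the column total to within 0.000519 and were not used further. A mouse build is listed in the submitters' processing notes, although the samples and miRNA names are rat, and the same notes list Cuffdiff, Cufflinks 2.1.1, TopHat2 2.0.9 and CASAVA 1.8. Which aligner and counter produced the miRNA counts was not given in the sources used here. From the counts, CPM, family shares, arm shares and CVs were computed with Python 3.11.15 and pandas 2.3.3. The common dispersion came from edgeR 4.0.16 (TMM, filterByExpr, intercept only) in R 4.3.3, with DESeq2 1.42.0 as alternative, tested on simulated data. RefSeq (GRCr8) gave sequences for 688 of 753 miRNAs; 11 more joined a family by name, so 699 with 99.0% of the counts had a seed. Arms were paired by name, loci summed. Named were the 20 most abundant miRNAs, 10 largest families with up to 4 leading members, 3 leading members of each list with members at 0, leading precursors by arm class, the 5 highest and lowest CVs and cluster members; others were chosen after their values were seen. The members and lists were chosen with earlier results of these data known. Floors cover counting error only. No groups were compared and no test was run.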

Additional observations from a re-analysis of the deposited data

How the results depend on the processing

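With miR-9a-5p left out of the counts altogether, the 10 leading miRNAs of the rest held 55.9% and the largest family (then miR-99/100) 20.01%. The neuronal list, now without that member, held 7.37% and the other tissue lists 3.87%. Under this setting 33 values for single miRNAs and lists moved by more than 1 SD, and only the liver and germline lists did not. Leaving out miR-9a-5p shrinks the total, so the CPM of every other miRNA rises by arithmetic. With TMM scaling, the levels of the 20 most abundant miRNAs stayed within 1 SD. At a 10-fold lead, 80 precursors led with the 5p arm in place of 123. The biological coefficient of variation was 0.160 with total-count scaling, 0.170 with no filter on low counts, 0.143 as DESeq2's dispersion, 0.137 without miR-122-5p and miR-6321 (chosen after seeing the data), and 0.0894 to 0.191 with 1 library left out. The median CV was 9.87% with TMM, 9.96% with DESeq2 size factors, 12.1% from 10 counts, 9.31% from 1000 counts, and 5.68% to 10.8% with 1 library left out. The cause of the shifts in both measures of spread was not tested. With all libraries kept, 9 other values for the main results stayed within 1 SD or 1.5 times. A mean over 3 libraries cannot move by 1 SD when 1 is left out, so such shifts were read by size: they exceeded 1.5 times in 3 results, each without replicate 4, namely both measures of spread and the liver list (0.00315% to 0.000445%). No paired analysis was possible because a single group of libraries was described and no test was run. With 3 libraries of unstated independence, an SD rests on 2 degrees of freedom; depth limits miRNAs below about 100 counts and the split between near copies rests on an unstated read assignment.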
